A study of Mus musculus with 4 samples.

Results

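The immunoglobulin constant genes and the J chain gene were followed in 4 RNA-seq libraries labelled as CD4+ T cells of WT mice and of mice with T-cell-specific deletion of MEK1 and MEK2 (Mek1/2-tKO). In the libraries labelled Mek1/2-tKO, Cd4 was far lower than in WT, as described below, and the group names used here are the labels. Map2k2 was not lower, but gene counts do not check its deletion. The 10 genes were taken by symbol: Ighm, Ighd, Ighg1, Ighg2b, Ighg2c, Ighg3, Igha and Ighe, which encode the constant regions of the heavy chains, Igkc, which encodes the constant region of the kappa light chain, and Jchain. All 10 were found among the 54752 genes listed in the count files. The RNA came from mouse splenic cells on day 3 of in vitro polarization toward T follicular helper (Tfh) cells, the T cells that help B cells in germinal centers. Of the 4 libraries, 2 are labelled WT and 2 Mek1/2-tKO, whose mice carried Cd4-Cre together with homozygous floxed alleles of Map2k1 and Map2k2 on a C57BL/6 background. Cd4-Cre is active in the T lineage and not in B cells. Both genotypes were given the same culture, with plate-bound anti-CD3, anti-CD28, IL-6 and antibodies that block TGF-β, IL-4, IFN-γ and IL-2. The alleles carried by the WT mice and the age of the animals in this experiment were not given in the sources used here.

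An antibody is built from heavy and light chains, each with a variable region joined to a constant region, and the heavy-chain constant region sets its isotype. A resting B cell transcribes Ighm and Ighd together, by alternative processing of 1 long transcript, and carries IgM and IgD on its surface. In class-switch recombination, cytokines and CD40 signals from helper T cells direct the deletion of the DNA between the variable region and a downstream constant gene, so that the same variable region is joined to an IgG, IgE or IgA constant region. Each downstream gene is also transcribed in a sterile form from its own promoter before it is recombined, and counts on constant exons do not separate sterile from productive transcripts. T cells are not known to make antibody.

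The 8 heavy-chain constant genes lie on the minus strand of chromosome 12 (GRCm38) in the order Ighm, Ighd, Ighg3, Ighg1, Ighg2b, Ighg2c, Ighe and Igha. Ighm (ENSMUSG00000076617.9) spans 113418558 to 113422730, and the starts of the others lie between 6.41 kb (Ighd) and 162 kb (Igha) downstream of its start. Along the chromosome follow Ighd (ENSMUSG00000104213.5, 113406604 to 113416324), Ighg3 (ENSMUSG00000076615.4, 113356224 to 113361232), Ighg1 (ENSMUSG00000076614.7, 113325240 to 113330523) and Ighg2b (ENSMUSG00000076613.4, 113302965 to 113307933). Ighg2c (ENSMUSG00000076612.8, 113285325 to 113288932), Ighe (ENSMUSG00000087642.3, 113269260 to 113273248) and Igha (ENSMUSG00000095079.6, 113254830 to 113260236) come last. Igkc (ENSMUSG00000076609.2) lies on the plus strand of chromosome 6 at 70726435 to 70726966, and Jchain (ENSMUSG00000067149.6) on the minus strand of chromosome 5 at 88519809 to 88527891. The coding sequences of the 4 IgG genes are related, with 73.9% identity between Ighg1 and Ighg3 and 85.6% between Ighg2b and Ighg2c, and their hinge exons run from 39 to 66 bases. The hinge sequences are shown because the isotype comparison rests on telling these genes apart. They are written 5′ to 3′ from the GENCODE transcripts of GRCm38, with the cysteine codons in frame in capitals:
Ighg3 hinge, chr12:113360529-113360576, minus strand: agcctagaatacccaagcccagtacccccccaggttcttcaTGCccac
Ighg1 hinge, chr12:113329844-113329882, minus strand: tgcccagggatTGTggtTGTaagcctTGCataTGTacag
Ighg2b hinge, chr12:113307261-113307326, minus strand: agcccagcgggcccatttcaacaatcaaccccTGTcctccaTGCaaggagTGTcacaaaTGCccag
Ighg2c hinge, chr12:113288263-113288325, minus strand: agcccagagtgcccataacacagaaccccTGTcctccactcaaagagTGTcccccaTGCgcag
These exons hold 1, 4, 4 and 3 cysteine codons, among which are those of the residues that link the heavy chains to each other. No stretch of 150 bases, the length of 1 read, was shared exactly between any of the 10 genes and the transcripts of another gene (0 of 2442 windows in Ighg1, 0 of 2528 in Ighg2b, 0 of 1176 in Ighg2c and 0 of 2363 in Ighg3), and none of the 10 shares exon bases with another annotated gene.

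IgM and IgA differ from the other isotypes in ending with a secretory tail through which they are joined into polymers, and the J chain is the small protein that is linked into those polymers. The coding end of each tail is shown, with the codon of the penultimate cysteine, to which the J chain bonds, in capitals:
Ighm tail, chr12:113420870-113420923, minus strand: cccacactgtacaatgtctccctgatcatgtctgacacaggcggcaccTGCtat
Igha tail, chr12:113258771-113258824, minus strand: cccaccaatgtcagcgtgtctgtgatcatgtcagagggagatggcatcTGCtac
Over their whole length the coding sequences of Ighm and Igha are 45.4% identical.

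The libraries held 18858860 and 18807774 counts in WT and 16330802 and 18931090 counts in Mek1/2-tKO. Of the deleted genes, Map2k1 stood at 182 and 187 CPM (counts scaled to library size) in WT and at 98.0 and 105 CPM in Mek1/2-tKO, a fall of 0.86 on the log2 scale (adjusted p = 1.29e-06, edgeR quasi-likelihood test). Map2k2 stood at 155 and 165 CPM in WT and at 172 and 182 CPM in Mek1/2-tKO (adjusted p = 0.126, edgeR), and since gene counts also cover exons outside the deleted part, whose extent was not given in the sources used here, they do not check this deletion. The labelled cell type was checked with 15 T-cell identity genes, none of which was at 0 in any library. Cd4 itself, the co-receptor that defines these cells, stood at 297 and 289 CPM in WT but at only 18.8 and 25.1 CPM in Mek1/2-tKO, a log2 fold change of -3.73 (SE, the standard error, 0.12, with adjusted p = 2.43e-11, edgeR). Of the CD3 chain genes, Cd3e fell by 1.06 on the log2 scale and Cd247 by 0.79, while Cd3d (0.20) and Cd3g (0.24) were not called. Of the receptor constant genes, Trac fell by 0.98, while Trbc1 (0.16) and Trbc2 (-0.03) were not called. The surface receptors Cd5 and Cd28 fell by 1.55 and 1.99. Cd8a, the co-receptor of cytotoxic T cells, rose by 2.06. T-cell genes were thus present in all libraries, but the levels of Cd4 and Cd8a go against the CD4+ label in both Mek1/2-tKO libraries, so that no comparison of the genotypes could be made without such libraries.

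Of the 10 genes, 8 rose and 1 fell in Mek1/2-tKO, and the last, Ighe, was seen in WT alone. Calls required an adjusted p under 0.05 and a minimum change of 1.5-fold in the quasi-likelihood test of edgeR, where the Benjamini-Hochberg method was applied over the 14330 genes tested. Among all genes tested, 19.3% were called higher and 16.4% lower by the same rule. Ighm, Ighd, Ighg2b, Ighg2c, Ighg3, Igha, Igkc and Jchain rose, and Ighg1 fell. Both Mek1/2-tKO libraries lay above both WT libraries in 8 of the 10 genes and in 39.5% of all genes tested. Both lay below in Ighg1, in Ighe with its 0 counts, and in 38.8% of all genes tested. A gap in 1 direction or the other was thus common among all genes. The median log2 fold change was 1.82 over the 10 genes and 0.02 over all genes tested. Ighe, with 0 counts in Mek1/2-tKO, passed the filter on low counts through the WT libraries alone, so that its lower call is no support and its values are given as a description. Nothing in the labels says that the 2 libraries of a genotype came from separate animals or cultures, so the p-values measure the spread between these libraries, which may be technical.

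**Figure D1:**
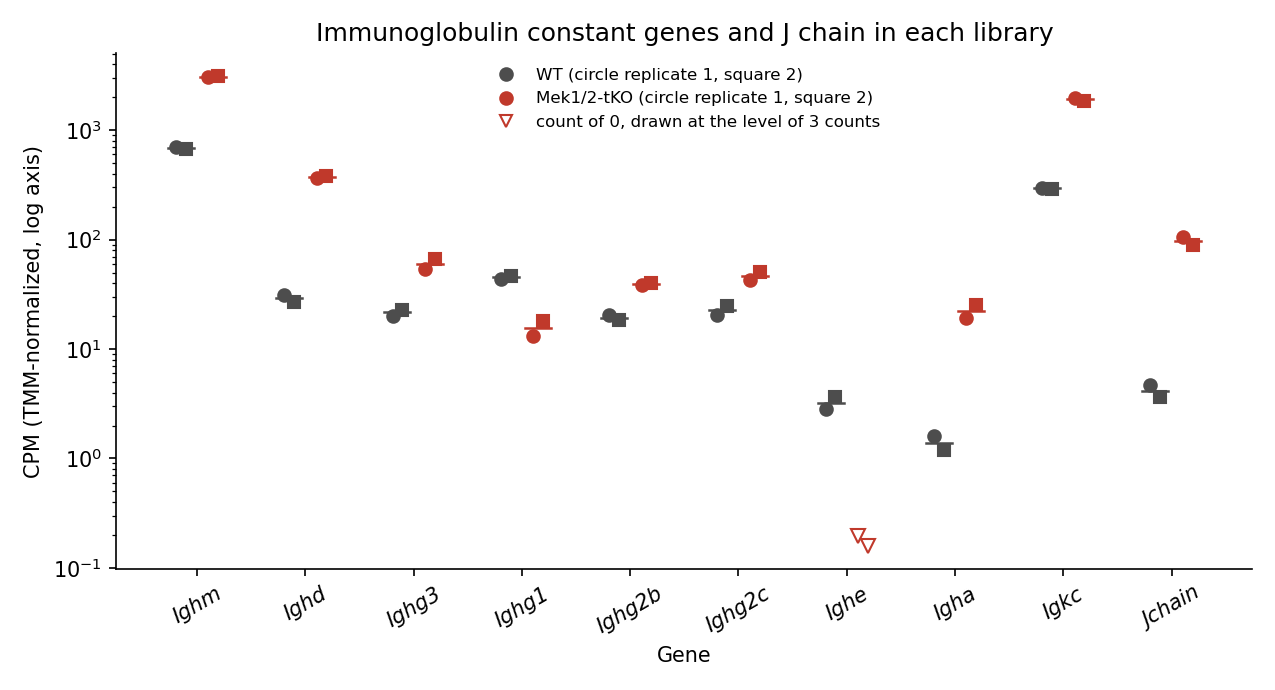
CPM (TMM-normalized, log axis) of each gene in each library, with WT in grey, Mek1/2-tKO in red, circles for replicate 1, squares for replicate 2 and horizontal lines at the mean. In 8 genes both red points lie above both grey points, Ighg1 lies the other way, and the open triangles for Ighe mark libraries with 0 counts at the level that 3 counts would have.

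Ighm encodes the constant region of the µ heavy chain of IgM. Its level was 696 and 670 CPM in the WT libraries and 3068 and 3095 CPM in the Mek1/2-tKO libraries. Replicates differed little beside the gap between the genotypes, and the fold change was 4.51 (95% interval 4.06 to 5.01, adjusted p = 7.81e-11, edgeR). In bulk RNA, more cells of a type and more RNA per cell cannot be told apart, for this and every gene described here.

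Ighd encodes the constant region of the δ heavy chain of IgD, which mature naive B cells carry beside IgM. Its level was 31.0 and 27.1 CPM in WT and 365 and 380 CPM in Mek1/2-tKO, a log2 fold change of 3.68 (SE 0.09, adjusted p = 2.95e-12, edgeR). All Mek1/2-tKO values were thus more than 10-fold above all WT values, a wider gap than for Ighm. For every 100 counts on Ighm there were 4.46 and 4.04 counts on Ighd in WT and 11.9 and 12.3 in Mek1/2-tKO.

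The 4 IgG genes did not move together. Ighg3, the first IgG gene downstream of Ighd, was at 20.2 and 22.9 CPM in WT and at 53.7 and 65.9 CPM in Mek1/2-tKO, a log2 fold change of 1.47 (SE 0.13, adjusted p = 6.14e-07, edgeR). Ighg1, the next gene, which encodes the IgG isotype associated with IL-4 and type 2 responses, was at 44.0 and 46.4 CPM in WT and at 13.2 and 18.1 CPM in Mek1/2-tKO. It was the only IgG gene with both Mek1/2-tKO libraries below both WT libraries, and it fell by 1.52 on the log2 scale (SE 0.15, adjusted p = 1.53e-06, edgeR). The 2 genes that follow rose by similar factors. Ighg2b, associated with TGF-β, was at 20.3 and 18.5 CPM in WT and at 38.2 and 40.0 CPM in Mek1/2-tKO, a fold change of 2.02 (95% interval 1.70 to 2.39, adjusted p = 1.39e-05, edgeR). Ighg2c, the C57BL/6 form of the isotype associated with IFN-γ, was at 20.6 and 24.9 CPM in WT and at 43.1 and 50.2 CPM in Mek1/2-tKO, a fold change of 2.05 (95% interval 1.71 to 2.46, adjusted p = 1.97e-05, edgeR).

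Ighe and Igha, the last genes of the locus, went in opposite directions. Ighe encodes the constant region of IgE, whose switching also depends on IL-4. Its counts were 55 and 70 in WT, or 2.82 and 3.63 CPM, and 0 in both Mek1/2-tKO libraries. Set against 3 counts in a Mek1/2-tKO library (0.194 CPM), its level was at least 16.7-fold lower in Mek1/2-tKO. These floors, and the intervals given for shares below, cover counting error only. Igha, which encodes the constant region of IgA, the isotype of mucosal surfaces, had only 31 and 23 counts in WT and 295 and 477 counts in Mek1/2-tKO. In CPM this was 1.59 and 1.19 against 19.1 and 25.4, a log2 fold change of 3.99 (SE 0.25, adjusted p = 1.98e-08, edgeR). This was the largest estimate among the heavy-chain genes, but it was not separated from that of Ighd. The 95% intervals of the fold change were 11.4 to 22.3 for Igha and 11.3 to 14.5 for Ighd. Along the locus, Ighg1, which fell, lies between Ighg3 and Ighg2b, which rose.

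**Figure D2:**
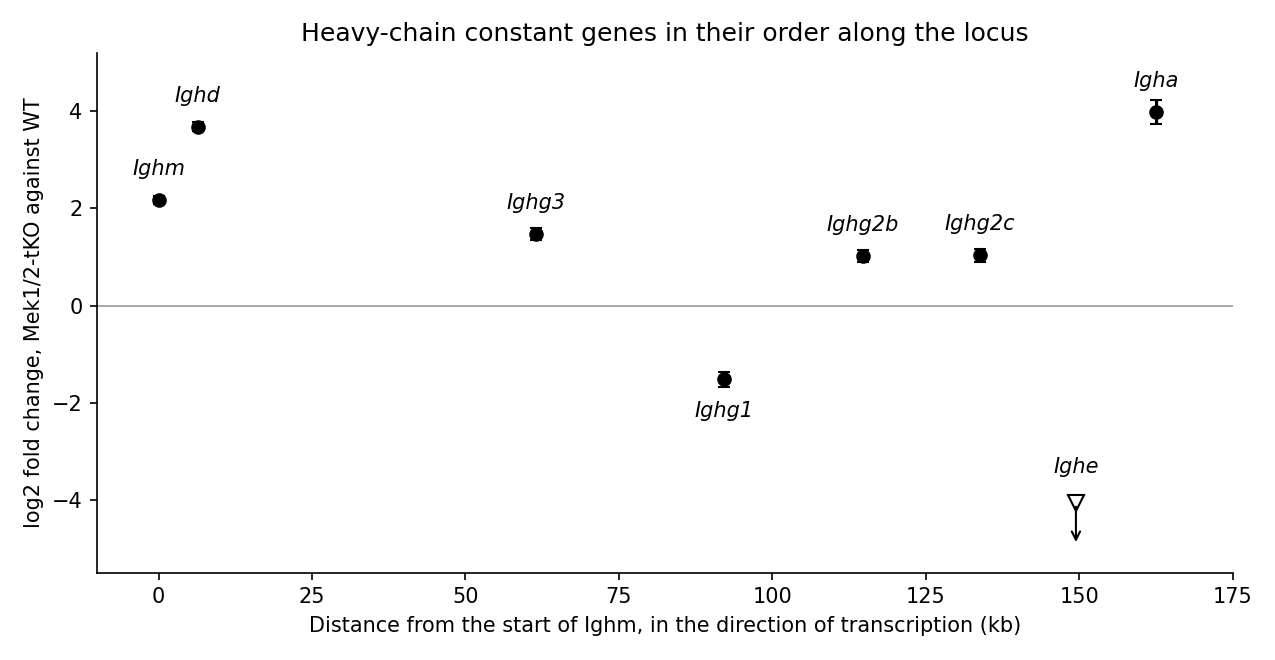
Log2 fold change of each heavy-chain constant gene (Mek1/2-tKO against WT, points, bars ± standard error) against the distance of its start from the start of Ighm in kb. Ighg1 at 92.2 kb lies below 0 with risen genes on both sides, and the open triangle with an arrow marks Ighe, at 149 kb, at its bound of -4.06, since it had 0 counts in Mek1/2-tKO.

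Both kinds of light chain rose. Igkc, the single constant gene of the kappa chain, was at 296 and 293 CPM in WT and at 1960 and 1861 CPM in Mek1/2-tKO, a fold change of 6.49 (95% interval 5.83 to 7.22, adjusted p = 1.28e-11, edgeR). The lambda constant gene Iglc2 was at 19.5 and 17.7 CPM in WT and at 373 and 291 CPM in Mek1/2-tKO, a log2 fold change of 4.15. Iglc1 and Iglc3 rose by 3.18 and 3.26, and Iglc4, with 0, 6, 9 and 19 counts in the 2 WT and 2 Mek1/2-tKO libraries, did not pass the test (adjusted p = 0.0596, edgeR). Iglc2 shares 38 exon bases with Iglj2 and Iglc3 shares 93 with 2010309G21Rik, and their counts are uncertain to that extent. The lambda genes took 12.7% and 13.9% of the light-chain constant counts in WT (upper ends of the 95% Wilson intervals 13.6% and 14.7%). In Mek1/2-tKO they took 24.8% and 21.6% (lower ends 24.4% and 21.2%), above both WT libraries. With 2 libraries a genotype, an exact permutation test cannot give a p below 0.333, and shares were not tested. The surrogate light-chain genes Igll1 and Vpreb2, which mark B-cell precursors, had 0 counts in every library, and Vpreb1 had 0 and 2 counts in WT and 0 and 6 in Mek1/2-tKO. Vpreb3, which is related to them in sequence and is also expressed in mature B cells, had 44 and 36 counts in WT and 222 and 236 in Mek1/2-tKO and rose by 2.70 on the log2 scale (adjusted p = 7.77e-07, edgeR).

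Light- and heavy-chain genes did not keep a fixed ratio. There were 40.6 and 41.7 counts on the light-chain constant genes for every 100 on the heavy-chain constant genes in WT, and 72.4 and 64.6 in Mek1/2-tKO. The ratio was higher in both Mek1/2-tKO libraries than in either WT library.

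Jchain had the largest rise of the 10 genes. Its level was 4.67 and 3.63 CPM in WT, from 91 and 70 counts, and 105 and 88.8 CPM in Mek1/2-tKO, from 1631 and 1667 counts. The fold change was 23.3 (95% interval 18.9 to 28.7, adjusted p = 4.74e-11, edgeR), and the interval overlapped that of Igha (11.4 to 22.3). For every 100 counts on Ighm there were 0.671 and 0.542 counts on Jchain in WT and 3.43 and 2.87 in Mek1/2-tKO.

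Levels of different genes were compared per kilobase of exon. In WT the order was Igkc (553 CPM per kb), Ighm (362), Ighg1 (17.4), Ighg2c (17.2), Ighd (15.3), Ighg3 (8.59), Ighg2b (7.23), Ighe (2.04), Jchain (1.65) and Igha (0.522). The libraries of Ighg1 and Ighg2c, of Ighg2c and Ighd, and of Ighe and Jchain overlapped, so that these neighbors were not separated. In Mek1/2-tKO the order was Igkc (3591 CPM per kb), Ighm (1634), Ighd (196), Jchain (38.6), Ighg2c (35.2), Ighg3 (23.8), Ighg2b (14.6), Igha (8.33), Ighg1 (6.04) and Ighe (0), where Jchain and Ighg2c overlapped. Igkc and Ighm led in both genotypes. Ighg1 went from the third place to the ninth, Jchain from the ninth to the fourth and Ighd from the fifth to the third. The exon lengths take in membrane exons and untranslated ends, and for Jchain an exon of a transcript with a retained intron.

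Since Ighm itself rose, each of the other 9 genes was also tested relative to it, with the Ighm count of each library as the offset in edgeR's quasi-likelihood test. Relative to Ighm, 3 of the 9 were higher in Mek1/2-tKO (Jchain, Igha and Ighd) and 4, all of them IgG genes, were lower (Ighg3, Ighg2c, Ighg2b and Ighg1), where 2.24% of all genes tested were higher and 88.8% lower, because Ighm rose more than most genes. The 3 higher genes therefore stand against a low background, and the 4 lower genes share their direction with most of the transcriptome. The log2 fold change relative to Ighm was 2.37 for Jchain (standard error 0.15), 1.82 for Igha (0.25) and 1.51 for Ighd (0.10). It was -0.70 for Ighg3 (standard error 0.13), -1.14 for Ighg2c (0.14), -1.16 for Ighg2b (0.13) and -3.70 for Ighg1 (0.15), and Ighe, at 0 in Mek1/2-tKO, was at least 75.0-fold lower relative to Ighm, given as a description. Ighg3 missed the 1.5-fold threshold without WT replicate 2 (-0.58) or without Mek1/2-tKO replicate 1 (-0.57). Igkc rose slightly more than Ighm, by 0.52 (standard error 0.09, adjusted p = 1.2e-05, edgeR), which was under 1.5-fold. The lambda genes Iglc2, Iglc3 and Iglc1 were higher by 1.98, 1.08 and 1.00.

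**Figure D3:**
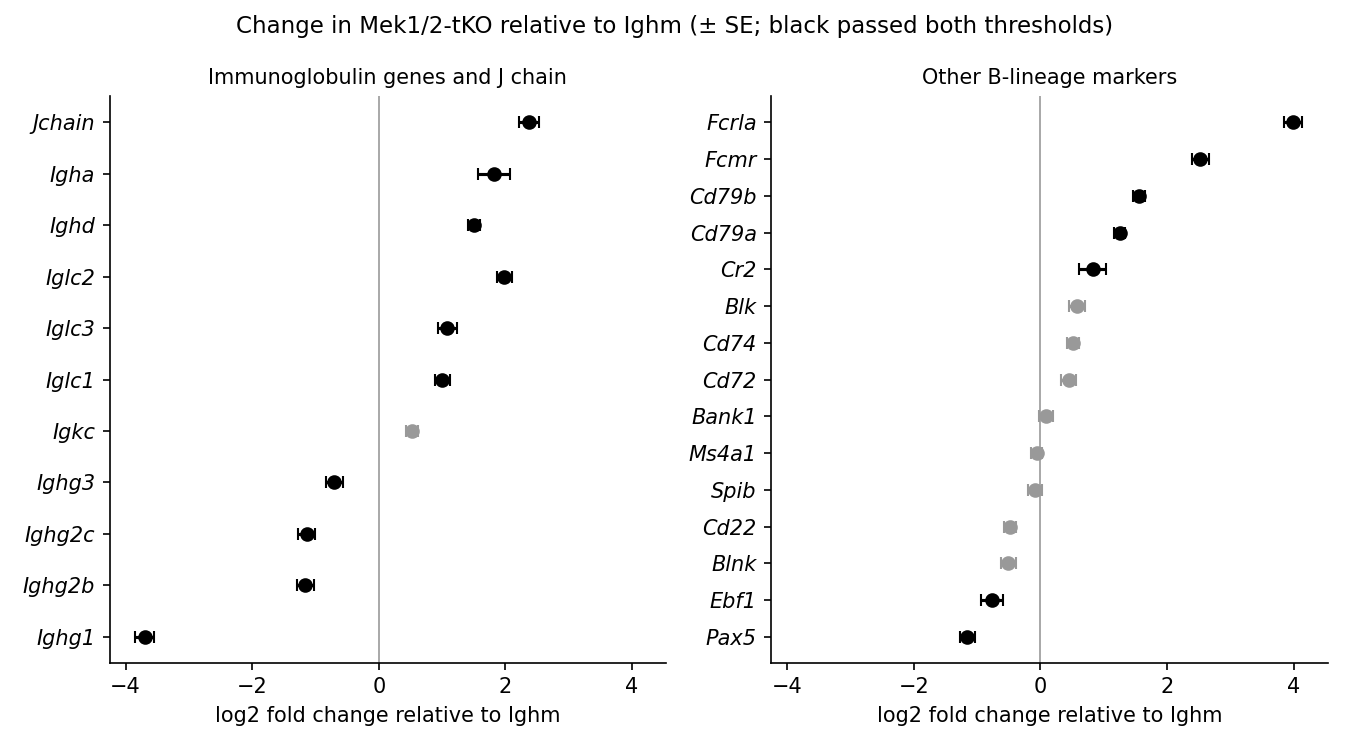
Log2 fold change relative to Ighm (Mek1/2-tKO against WT, ± standard error) of the immunoglobulin genes and Jchain on the left and of 15 of the 16 other B-lineage markers on the right, with 1 marker not reported by name here left out, with black for genes past both thresholds and grey for the others. Jchain, Igha, Ighd and the lambda genes lie to the right of 0, the 4 IgG genes to the left, and Ighe, at 0 in Mek1/2-tKO, is not drawn.

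The switched genes, taken as Ighg1, Ighg2b, Ighg2c, Ighg3, Igha and Ighe together, held a smaller share of the heavy-chain constant counts in Mek1/2-tKO. The share was 13.1% and 14.4% in WT (lower ends of the 95% Wilson intervals 12.6% and 13.9%) and 4.65% and 5.43% in Mek1/2-tKO (upper ends 4.82% and 5.60%). Ighm held 83.2% and 82.3% in WT and 85.2% and 84.2% in Mek1/2-tKO, and Ighd held 3.71% and 3.32% in WT and 10.1% and 10.3% in Mek1/2-tKO. The share of Ighd gained more percentage points than that of Ighm.

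The makeup of the switched counts differed as well. Ighg1 held 40.2% and 39.5% of them in WT and 7.92% and 9.04% in Mek1/2-tKO. Ighg3 held 18.5% and 19.5% in WT and 32.1% and 33.0% in Mek1/2-tKO, and Igha held 1.45% and 1.02% in WT and 11.4% and 12.7% in Mek1/2-tKO. All 3 shares differed between the genotypes by far more than between replicates. The shares of Ighg2b (18.5% and 15.7% in WT, 22.8% and 20.1% in Mek1/2-tKO) and of Ighg2c (18.8% and 21.2% in WT, 25.8% and 25.1% in Mek1/2-tKO) differed less, and the genotypes still did not overlap. Ighe held 2.58% and 3.09% in WT, and its 0 counts in Mek1/2-tKO allow a share of up to 0.116% and 0.0800%.

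**Figure D4:**
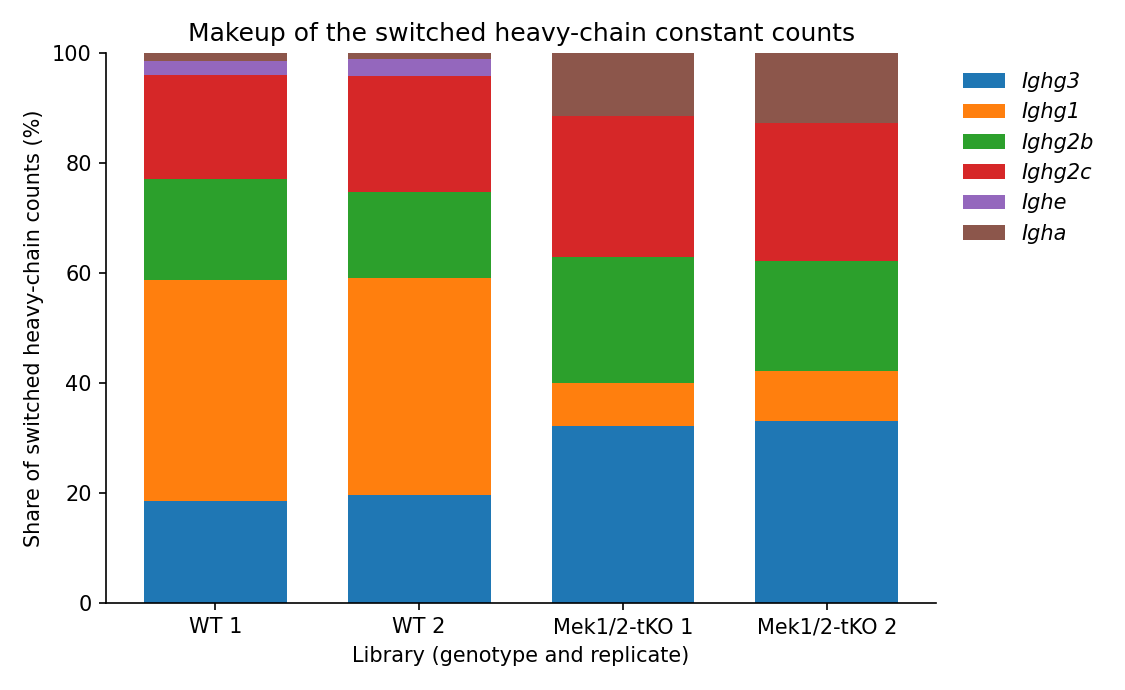
Share (%) of each gene in the counts on the 6 switched heavy-chain constant genes, 1 stacked bar per library. The 2 bars of a genotype look alike, Ighg1 shrinks from 40.2% and 39.5% in WT to 7.92% and 9.04% in Mek1/2-tKO, Ighg3 and Igha widen, and Ighe is seen in the WT bars alone.

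The variable segments that are joined to these constant genes were also counted. For each count on a heavy-chain constant gene there were 0.134 and 0.148 counts on heavy-chain V segments in WT and 0.193 and 0.189 in Mek1/2-tKO. For the kappa chain the ratio was 0.797 and 0.845 in WT and 0.900 and 0.828 in Mek1/2-tKO, so that the genotypes overlapped. For the lambda chain it was 0.461 and 0.388 in WT and 0.479 and 0.455 in Mek1/2-tKO, which also overlapped. All immunoglobulin genes together took 0.160% and 0.159% of the counts in WT and 0.853% and 0.847% in Mek1/2-tKO.

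Markers of other cell types moved with the immunoglobulin genes. Of 16 B-lineage markers outside the immunoglobulin genes, all were detected in every library and all 16 rose, where 19.3% of all genes tested did, with a median log2 fold change of 2.44. Their summed level was 1302 and 1309 CPM in the WT libraries against 8111 and 8327 CPM in the Mek1/2-tKO libraries, and the most abundant was Cd74, the invariant chain of MHC class II, which is not restricted to B cells, at 629 and 621 CPM against 3912 and 4169 CPM. Their changes spread widely around that of Ighm. The antigen-receptor chains Cd79a and Cd79b, which carry IgM and IgD at the membrane, rose by 3.43 and 3.73 on the log2 scale, which was 1.25 and 1.56 beyond Ighm. Ms4a1, which encodes CD20, rose by 2.12, within 1.5-fold of Ighm, and Pax5, the factor that keeps B-cell identity, rose by 1.02, less than Ighm by 1.15. Fcrla, an intracellular Fc receptor-like protein of B cells, went from 2.62 and 3.37 CPM to 218 and 212 CPM, the largest change of these markers, and Fcmr, the receptor for the constant region of IgM, rose by 4.70.

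Other marker lists were set against the 19.3% of all genes tested that were called higher and the 16.4% called lower. All 6 NK-cell markers were called higher, among them Nkg7 (2.72), Prf1 (2.57), Klre1 (3.71) and Ncr1 (3.73) on the log2 scale. Their median was 3.21, and they summed to 96.7 and 99.7 CPM in WT and 672 and 613 CPM in Mek1/2-tKO. Nkg7 was the most abundant, and none was at 0. Klra8 had only 4 and 5 counts in WT and 129 and 85 in Mek1/2-tKO. It passed the filter on low counts through Mek1/2-tKO alone, so that its higher call is no support. Of 8 myeloid markers, 6 were tested and called higher, among them Cst3 (2.32), Ly6c2 (2.87) and Fcer1g (3.26). The 8 summed to 111 and 110 CPM in WT and 734 and 598 CPM in Mek1/2-tKO, Cst3 most abundant. The macrophage marker Adgre1 and the neutrophil marker S100a8 had 0 counts in both WT libraries, and Lyz2 had 8 and 12. These genes passed the filter on low counts through the Mek1/2-tKO libraries, so that their higher calls are no support. Csf1r had 0, 8, 36 and 10 counts and Itgam had 2, 0, 3 and 8, and neither was tested. This left Cst3, Ly6c2 and Fcer1g. In WT, where Adgre1 and S100a8 had 0 counts, Cst3 stood at 69.0 and 67.9 CPM and Ly6c2 at 39.0 and 37.9 CPM. Whether these 3 genes mark myeloid cells in these libraries was not tested. Of the 15 T-cell identity genes, 3 rose, a share near that of all genes, 6 fell and 6 were not called (median -0.54, summed 3651 and 3656 CPM in WT and 3334 and 3099 CPM in Mek1/2-tKO, Thy1 most abundant). Thy1 rose by 0.83, while the T-cell receptor signaling genes Lat (-0.55) and Lck (-0.54) and the receptor constant gene Trbc2 (-0.03) were not called. The share of mitochondrial counts was 1.62% and 1.56% in WT and 2.24% and 1.99% in Mek1/2-tKO. Per the study's methods, naive CD4+ T cells were enriched magnetically before culture and viable cells were sorted before RNA was taken. The enrichment is meant to remove cells of other types, and the later sort is stated for viability alone. The part of these cell types, and of this share, in the changes of the immunoglobulin genes was not tested.

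Genes of class-switch recombination did not rise with the constant genes. Of 28 tested, 1 rose, 10 fell and 17 were not called, with a median log2 fold change of -0.41, where 19.3% of all genes tested rose and 16.4% fell. Ung, the glycosylase that removes uracil from DNA, was lower by 0.48, under 1.5-fold. The mismatch repair gene Msh6 fell by 0.92, and Rif1, which protects the broken ends, fell by 1.30. The gene that rose was Hmces, which shields abasic sites (0.62). Its call was lost under library size scaling and without WT replicate 1. Supt5, a transcription elongation factor with the highest CPM of the list in WT but not in Mek1/2-tKO, was lower by 0.45. H2afx, the histone marked at DNA breaks, was lower by 0.36, and Exosc3, an RNA exosome subunit, was higher by 0.54. The changes of Supt5, H2afx and Exosc3 were all under 1.5-fold. The repair genes of this list are also used by dividing cells of any type.

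Genes listed as signals that direct switching moved in both directions. Of 7 ligand genes tested among 10, 3 rose (Ifng, Il13 and Il10), 2 fell (Il21 and Cd40lg) and 2 were not called, with a median of -0.17, beside 19.3% higher and 16.4% lower among all genes tested. Ifng, which directs switching toward IgG2c, was at 127 and 121 CPM in WT and at 2054 and 1773 CPM in Mek1/2-tKO, a log2 fold change of 3.95. Cd40lg, the T-cell ligand without which little switching occurs in vivo, was at 28.3 and 24.5 CPM in WT and at 2.07 and 1.38 CPM in Mek1/2-tKO, a log2 fold change of -3.95. Il21 fell by 2.53. Il13 rose by 1.33, and whether it directs switching in mouse B cells was not tested. Il4, which directs switching toward IgG1 and IgE, had only 65 and 66 counts in WT and 36 and 24 in Mek1/2-tKO, with a log2 fold change of -0.92 (adjusted p = 0.0665, edgeR) that did not pass. It passed without Mek1/2-tKO replicate 1 (-1.39) and when scaled by library size alone (-1.01), and was -0.55 without Mek1/2-tKO replicate 2, which did not pass. Tgfb1, which directs switching toward IgA and IgG2b, did not pass (-0.17, adjusted p = 0.176, edgeR). The culture of both genotypes held antibodies that block IFN-γ, IL-4 and TGF-β. A link between the RNA of these cytokines and the isotypes was not tested. Il5 had 0, 8, 0 and 0 counts, Tnfsf13b had 2, 0, 6 and 2, and Tnfsf13 had none. Of 12 receptor genes, 6 rose in the main fit, among them Cd40 (0.88) and the BAFF receptor Tnfrsf13c (1.46). None was called lower there (median 0.71), against the same shares of all genes. How many switch-directing genes were called lower depended on which library was left out, as given below. The receptor genes Il4ra (-0.47), Il21r (-0.36) and Il2rg (0.04) were not called.

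Antibody-secretion genes, which serve the folding and export of immunoglobulin in plasma cells, changed less than Jchain. Of 22 tested, 7 rose, 1 fell and 14 were not called, with a median log2 fold change of 0.46, and of all genes tested 19.3% rose and 16.4% fell. Mzb1, a chaperone of IgM assembly in marginal zone B cells and plasma cells, was at 60.8 and 49.0 CPM in WT and at 302 and 256 CPM in Mek1/2-tKO, a log2 fold change of 2.35. Derl3, a factor of endoplasmic reticulum protein disposal, rose by 2.43 from under 3 CPM. The plasma-cell factors were not called: Prdm1 had 49 and 98 counts in WT and 75 and 133 in Mek1/2-tKO (log2 fold change 0.66, adjusted p = 0.119, edgeR), and leaving out 1 library moved it from 0.24 (without WT replicate 1) and 0.34 (without Mek1/2-tKO replicate 2), which did not pass, to 0.90 (without Mek1/2-tKO replicate 1) and 1.25 (without WT replicate 2), which did. Xbp1 and the octamer coactivator Pou2af1 were higher by 0.37 and 0.42, and Sdc1, the plasma-cell surface marker CD138, was at 9.39 and 11.5 CPM in WT and at 8.53 and 10.4 CPM in Mek1/2-tKO. Irf4, which acts in activated T cells as well as in plasma cells, fell by 1.51. The abundant chaperones Hspa5, Hsp90b1 and Pdia6 were at -0.12, 0.26 and 0.28, and Tnfrsf17, the receptor BCMA of plasma cells, had 0 counts in 3 libraries and 2 in Mek1/2-tKO replicate 1. Of 5 plasma-cell markers (Mzb1, Derl3, Prdm1, Sdc1 and Tnfrsf17) the summed level was 75.4 and 68.0 CPM in WT and 329 and 289 CPM in Mek1/2-tKO, mostly Mzb1.

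**Figure D5:**
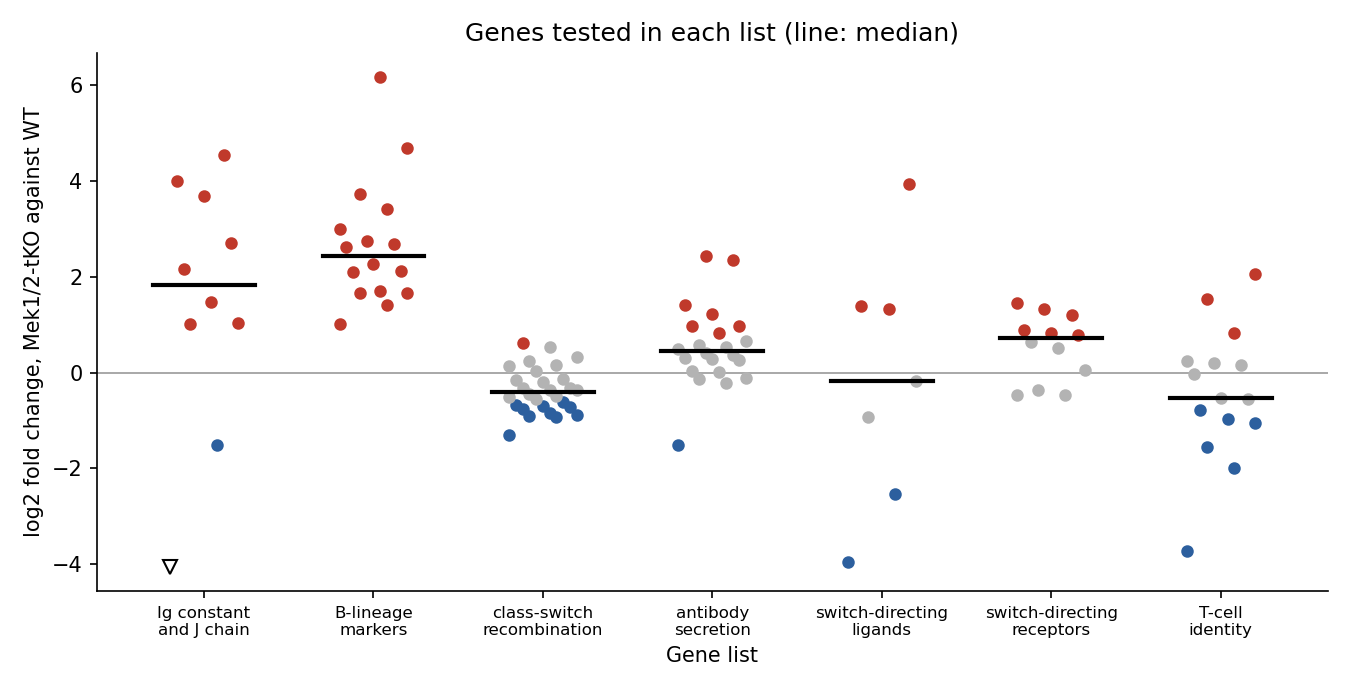
Log2 fold change (Mek1/2-tKO against WT) of each gene tested in 7 lists, with red for genes called higher, blue for genes called lower, grey for genes not called and black lines at the medians. The immunoglobulin and J chain genes (median 1.82) and the B-lineage markers (2.44) lie mostly above 0, class-switch recombination genes (-0.41) mostly below, and the open triangle is Ighe at its bound.

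The genes closest to Ighm, Igkc and Jchain were sought among 9529 genes whose average log2 CPM reached 3, by the Euclidean distance between log2 CPM values centered on each gene's mean over the 4 libraries. With 4 libraries in 2 genotypes this distance mainly picks genes with a like fold change. For Ighm the nearest were Smagp (distance 0.0731), Cd24a, Spib, Lmo2 and Ms4a1 (0.112). For Igkc they were H2-Ab1 (0.0428), Nkg7, A530040E14Rik, Il18rap and Cd38 (0.102). No gene came as close to Jchain, whose nearest were Ccl3 (0.204), Car1, Spp1, Ifitm1 and Dok3 (0.429). Ms4a1 and Spib are expressed in B cells, H2-Ab1 in antigen-presenting cells including B cells, Nkg7 in cytotoxic lymphocytes, and Ccl3 is a chemokine made by several kinds of activated immune cells.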

How the data were processed

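Gene counts of 4 libraries were used as deposited. Per the labels and the study's methods, the authors prepared stranded mRNA libraries, trimmed paired reads of 150 bases with Trimmomatic 0.36, mapped them to GRCm38 and counted reads per gene with featureCounts (Subread 1.5.1) to give the deposited count tables. The release of the annotation and whether counting used strand were not given in the sources used here. Symbols, coordinates and sequences were taken from GENCODE M21 (GRCm38), which named 54723 of 54752 genes. Counts were filtered with filterByExpr, scaled by TMM and tested with edgeR 4.0.16 (R 4.3.3), glmQLFit and glmQLFTest, on 14330 genes. Calls required an adjusted p under 0.05 with at least a 1.5-fold change. The common biological coefficient of variation was 0.0918. CPM used TMM-scaled library sizes, and means over WT and Mek1/2-tKO rest on 2 libraries each. Shares carry 95% Wilson intervals. The fit and its thresholds were also run on simulated data, but no outcome of that check is reported here and no result above rests on it.

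The 10 genes and the gene lists were chosen with earlier results of these data known. Named genes were the 10, in each further list the 4 most abundant genes, genes with a 0 count and the main regulators, and the 5 nearest genes to Ighm, Igkc and Jchain. Other genes named in counts of 10 or fewer, with Fcrla and Fcmr, were chosen after their values were seen. Some genes of the lists enter the counts, sums and medians but are not reported here by name. In the list of secretion genes, Fam46c was not found under that symbol. Alternatives were DESeq2 1.42.0, other scalings, filters, thresholds and references, a replicate block and leaving out each library. Replicates differed beyond sampling noise (chi-square per gene 4.19 in WT and 10.9 in Mek1/2-tKO).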

Additional observations from a re-analysis of the deposited data

How the results depend on the processing

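All 119 log2 fold changes of the 10 genes under an alternative kept the direction and the side of both thresholds. Relative to Ighm 61 of 63 did, the exceptions being Ighg3 without WT replicate 2 or without Mek1/2-tKO replicate 1 (Ighg3 ranged from -1.22 to -0.57 over all alternatives). Both tallies take in Ighe, whose lower call is no support. The 119 also take in the stricter thresholds, which reuse the fold changes of the main fit and could not change a direction. With at least 10 counts required in every library, Ighe was not tested and 1 of the 10 genes was lower. At a fold change of at least 2, 1725 of all genes were higher and 1040 lower, 0 class-switch genes were higher and 1 lower, and 4 secretion genes were higher. The single class-switch gene called higher, Hmces, was lost under library size scaling, which left 0, and without WT replicate 1 (0 to 1 over the leave-one-out fits). The count of switch-directing genes called lower was 2 to 4 when 1 library was left out, with 4 without Mek1/2-tKO replicate 2. Sdc1 turned from -0.13 to 0.017 without WT replicate 2 and to 0.0063 without Mek1/2-tKO replicate 1 (-0.30 to 0.017 over the leave-one-out fits). Counted per kilobase, the switched share was lower in Mek1/2-tKO by -7.74 percentage points, where it was -8.72 in counts. With V segments of at least 10 counts in every library, the heavy-chain V-to-constant ratio was higher by 0.0377, where it was 0.0504 over all segments. Under the replicate block (the replicate number as a term), 2652 of all genes and 8 of the 10 were called higher, 2300 of all genes and 2 of the 10 (Ighg1 and Ighe) lower, and the block changed no call of the 10. Same-numbered libraries did not deviate together (correlation 0.0147 over 9606 genes), so the numbers were not taken as pairs. With 2 libraries a genotype, 1 library of a genotype is assumed to vary like the other genotype when its partner is left out. Of the 10 genes, Jchain, Igha and Ighe rest on under 100 counts in each WT library, as do Vpreb3, Fcrla, Derl3, Il4, Il10, Prdm1 and other low genes of the lists.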
